A study of Oryza sativa with 6 samples.

Results

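The genes described here carry names of phosphate transport and phosphate signalling in rice (Oryza sativa): PHT or PT transporters, PHO1 exporters, SPX proteins and PHR transcription factors. They were chosen by name from a gene table, with any capitalisation, an optional Os prefix and an optional number. The table named 28 such genes, and 23 of the 17905 genes with a probe set of their own on the array were among them. The other 5, OsPT5, OsPT10, OsPT13, PHO1-1 and OsSPX6, were not analysed here, and the names PHO2, PHF and SPX-MFS matched no gene. Of the 23, 19 belong to the phosphate system by all their names. The other 4 share a name with it and are described apart, since their further names or a shared symbol point elsewhere: OsGRF4, OsHCT3, OsCPDII and OsPHT3.

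RNA of leaf blades was measured on 6 Affymetrix arrays. The overexpressor group was the rice Os-LBD37 line RK16331-13, and the other group was a line that carried the empty vector, with 3 replicate hybridizations each. Plants of both groups were resistant to hygromycin, grew in hydroponics and gave blades of the fifth and sixth leaves, taken at a date set by when the eighth emerged. The sources used here do not name the promoter of the transgene, and each group is 1 line, so Os-LBD37 and other differences between the lines cannot be told apart. The probe set of Os-LBD37 itself was not analysed here.

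Phosphate enters plant cells through PHT1 proteins, proton-coupled carriers of the plasma membrane, and leaves root cells for the xylem through PHO1 proteins. PHR transcription factors switch on genes of phosphate starvation, and SPX proteins, which sense inositol pyrophosphates made when phosphate is ample, bind and restrain them. In rice, nitrate supply is known to act on this system through breakdown of SPX4. Relatives of Os-LBD37 in Arabidopsis repress genes of nitrogen response, and the question here was whether phosphate genes moved with the nitrogen genes.

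Background was set on each array at the level that 95 percent of 132 controls stayed under, probe sets whose transcripts rice lacks, and lay between 27.4 and 45.4. Between 50.9 and 55.4 percent of the probe sets for rice exceeded it. Correlations of log2 values between arrays were 0.9537 to 0.9801 within lines and 0.9391 to 0.9666 between lines. Of 5 leaf markers, 4 were above background on all 6 arrays, and a probe set for the small Rubisco subunit read 19825 to 26450. That probe set was of a type with probes that can match other transcripts. The marker above background on no array, RBCS1, is another gene for this subunit, at 1.77 to 20.5. Of 4 root markers, the silicon exporter gene Lsi2 and the nicotianamine synthase gene NAS1 were above background on no array, the nicotianamine synthase gene NAS2 was above it on 5, and the silicon channel gene Lsi1 was above it on all 6. None of 5 leaf, 4 root and 3 senescence markers passed the test between the lines. The senescence marker SGR was at 752 to 1061 in the empty vector line and 1628 to 3202 in the overexpressor (limma adjusted p = 0.0934). The leaf marker PSAH was at 20828 to 30947 and at 12967.5 to 15852 (adjusted p = 0.175), and the lines did not overlap for either. The senescence marker NYC1 was at 6308 to 13496 and at 3117 to 6843, with lines that overlapped (adjusted p = 0.304). Replicate 2 stood apart in both lines by the clock genes CCA1 and OsPCL1. CCA1, expressed at dawn, read 5241 and 18627 on those arrays and 602 to 682 on the other 4. OsPCL1 read 1401 and 1275 on those arrays and 16866 to 22354 on the other 4. The clock gene OsPRR1 did not set replicate 2 apart, at 2267 to 4439 over the 6 arrays. For it, replicate 2 was the highest array of the empty vector line and the lowest of the overexpressor.

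None of the 23 genes passed the test between the lines, by limma with a Benjamini-Hochberg adjusted p under 0.05, in which 0.519 percent of all genes passed, 0.318 percent up and 0.201 percent down. At an unadjusted p under 0.05 there were 5 of 23, 2 higher and 3 lower in the overexpressor, where 14.2 percent of all genes had one, 8.49 percent higher and 5.66 percent lower. When replicates were blocked by number, 0 of 23 passed, where 1.31 percent of all genes did. The smallest adjusted p of the 23 was 0.138, for OsSPX3. The largest differences among genes above background on all arrays were 1.59 for the transporter gene OsPT4, -1.42 for the exporter gene PHO1-3 and -1.32 for the signalling gene OsSPX2, as log2 changes. All log2 changes are overexpressor minus empty vector, on the log2(intensity + 16) scale, which understates the change of dim genes.

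**Figure D1:**
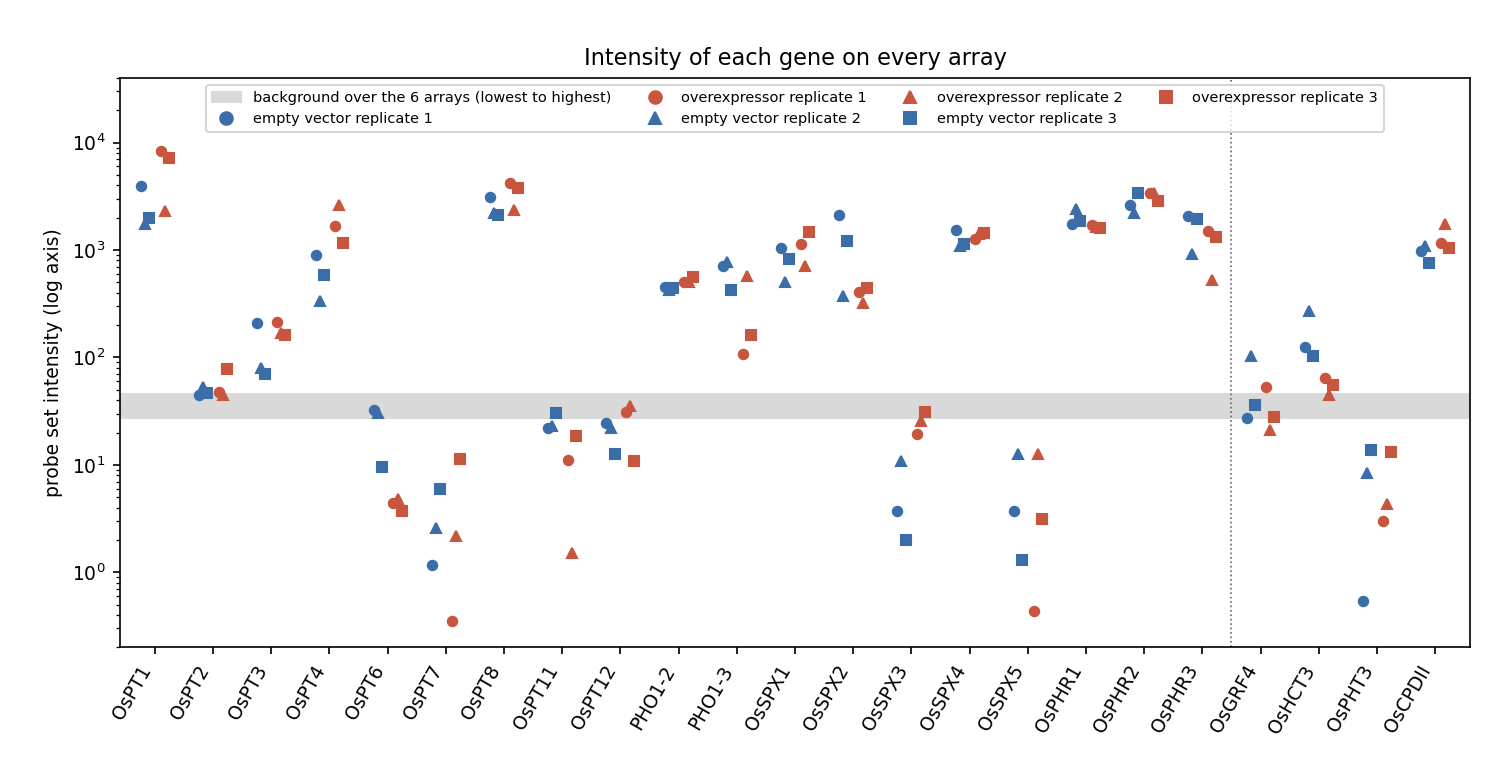
Probe set intensity (log axis) of each of the 23 genes on every array, with empty vector arrays in blue, overexpressor arrays in red and the replicate number as the marker shape. The grey band spans the background of the 6 arrays, and genes right of the dotted line are the 4 named for other functions; OsPT4 is higher on each overexpressor array than on any empty vector array, and OsPT6, OsPT7, OsSPX5 and OsPHT3 stay below background on every array.

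Of the 19 phosphate genes, 12 were above background on all 6 arrays, 4 on some and 3 on none. This held for 4 of 9 PHT1 transporters, both PHO1 genes, 3 of 5 SPX genes and all 3 PHR genes. The levels of different probe sets are not comparable with each other, so no order of levels is given.

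Among PHT1 transporters, OsPT4 (LOC4335115) had the largest change. It is a plasma membrane phosphate transporter of rice. Its intensity was 901, 332 and 583 on empty vector replicates 1, 2 and 3, and 1691, 2611 and 1156 on the overexpressor arrays in the same order. Each overexpressor array was above each empty vector array, and replicate 2 was the lowest array of one line and the highest of the other. The log2 change was 1.59 ± 0.43 (SE, n = 3 per line), with a 95% interval of 0.58 to 2.60, and did not pass (adjusted p = 0.155). Without both replicate 2 arrays the change was 0.93 (adjusted p = 0.173). OsPT4 was measured by 1 probe set, of a type with probes that can match other transcripts.

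OsPT1 (LOC4331635), a transporter known in rice for uptake that does not depend on starvation, was at 3985, 1734 and 2009 in the empty vector line. In the overexpressor it was at 8311, 2323 and 7180.3. The lines overlapped, since overexpressor replicate 2 lay within the empty vector range. The log2 change of 1.10 ± 0.54 (SE, n = 3 per line; interval -0.15 to 2.36) did not pass (adjusted p = 0.423). With single arrays left out, it ran from 0.76 without overexpressor replicate 1 (adjusted p = 0.684) to 1.68 without overexpressor replicate 2 (adjusted p = 0.137). A second probe set for OsPT1 was at 7.83, 308 and 67.9 in the empty vector line and at 58.3, 5794 and 166 in the overexpressor. There, replicate 2 was the brightest array of each line, while in the first probe set it was the dimmest of each.

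OsPT8 (LOC4348741), a major high-affinity phosphate transporter of rice, was at 3143, 2223 and 2117 in the empty vector line and at 4209.9, 2349 and 3795 in the overexpressor. The lines overlapped at replicate 2, and the log2 change of 0.45 ± 0.29 (SE, n = 3 per line; interval -0.23 to 1.12) did not pass (adjusted p = 0.570). For OsPT8 it was 0.28 without overexpressor replicate 1 and 0.70 without overexpressor replicate 2. The probe set kept for OsPT8 was of a type with probes that can match other transcripts. Other probe sets of OsPT8, not of this type, had changes of 0.33 ± 0.44 and 0.33 ± 0.28, with lines that overlapped. Its neighbour on chromosome 10, OsPT3 (LOC4348740), was at 209.9, 79.2 and 70.7 and at 216, 170.0 and 163. In the gene table no protein-coding gene lies between them. The log2 change of OsPT3 was 0.68 ± 0.43 (SE, n = 3 per line; adjusted p = 0.553), with only empty vector replicate 1 as bright as the overexpressor arrays. Without empty vector replicate 1 the change of OsPT3 was 1.12, and without empty vector replicate 3 it was 0.43. Of its 2 other probe sets, the one without cross-hybridizing probes was above background on 1 array and had a change of -0.75 ± 0.36.

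The other 5 PHT1 genes were near or below background. OsPT2 (LOC4331637), a low-affinity transporter that moves phosphate from root to shoot, was at 44.7 to 77.4 over the 6 arrays, above background on 5. The change of OsPT2 was 0.16 ± 0.33 (adjusted p = 0.886). OsPT12, OsPT1 and OsPT2 are neighbours on chromosome 3, in that order. OsPT12 (LOC4331634) was above background on only 2 arrays, both of the overexpressor, at 31.0 and 34.98. OsPT11 (LOC4324187), known from roots colonised by mycorrhizal fungi, was above background on 1 array of the empty vector line, at 30.3. OsPT6 (LOC4346342), a high-affinity transporter, was at 3.74 to 32.4 and OsPT7 (LOC4331542) at 0.35 to 11.3, each below background on all 6 arrays, so no fold is given. For OsPT6 the lines did not overlap, at 9.49 to 32.4 in the empty vector line and 3.74 to 4.80 in the overexpressor, with both below background.

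PHO1-2 (LOC4331090), an exporter that loads phosphate into the root xylem and serves grain filling in rice, was at 456, 425 and 440.01 in the empty vector line. In the overexpressor it was at 499.7, 499.8 and 557. The lines did not overlap, but the log2 change was only 0.23 ± 0.21 (SE, n = 3 per line; interval -0.26 to 0.71) and did not pass (adjusted p = 0.698). The probe set kept for PHO1-2 was of a type with probes that can match other transcripts. The other probe sets of PHO1-2, not of this type, had changes of -0.14 ± 0.37 and -0.24 ± 0.88, with lines that overlapped. PHO1-3 (LOC4341088), a relative, was at 709.6, 766 and 424 in the empty vector line and at 107, 579 and 163 in the overexpressor. Overexpressor replicates 1 and 3 were below every empty vector array, and replicate 2 was within their range. The log2 change was -1.42 ± 0.58 (SE, n = 3 per line; interval -2.78 to -0.05; adjusted p = 0.332). Without both replicate 2 arrays it was -1.93 (adjusted p = 0.0745). With single arrays left out, the change of PHO1-3 ran from -0.95 without overexpressor replicate 1 (adjusted p = 0.594) to -2.09 without overexpressor replicate 2 (adjusted p = 0.0875).

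**Figure D2:**
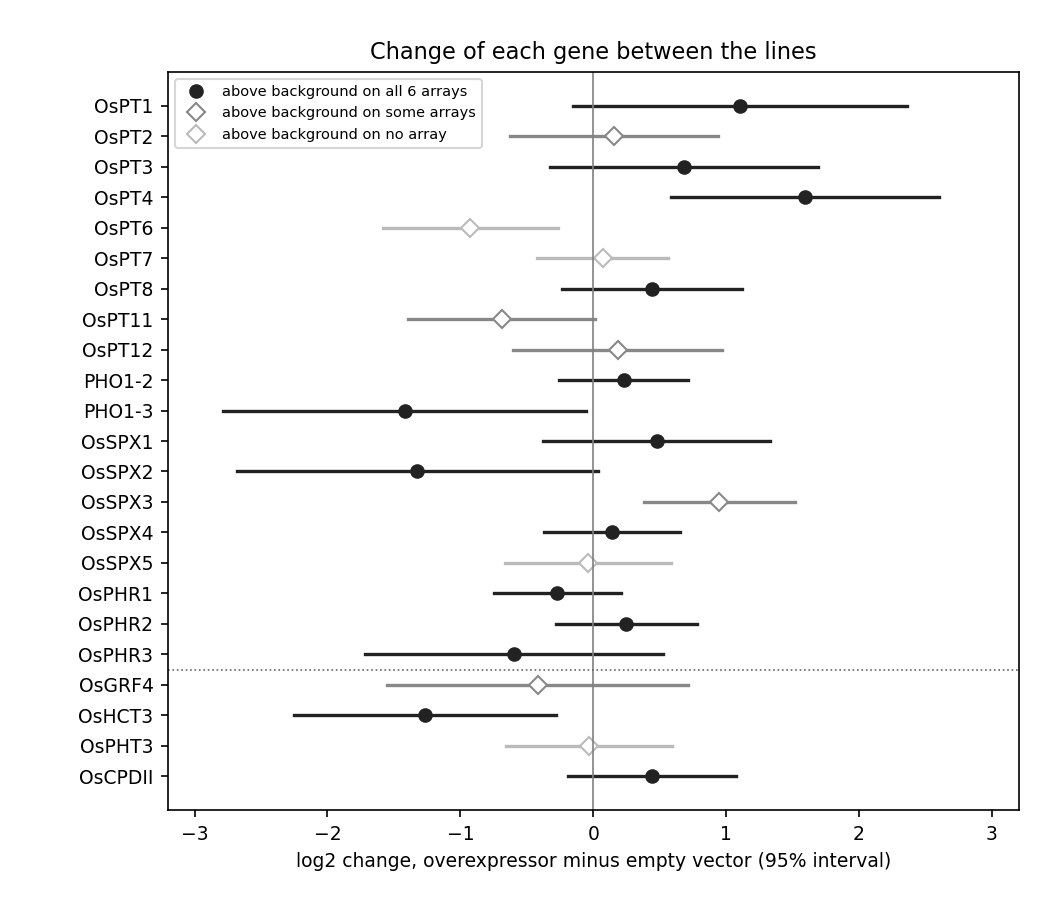
Log2 change of each gene, overexpressor minus empty vector, as a point with its 95% interval, with 3 arrays per line. Filled points are genes above background on all 6 arrays, and the 4 genes below the dotted line are those named for other functions; most intervals include 0, and those of OsPT4, OsSPX3, OsPT6, PHO1-3 and OsHCT3 do not, before adjustment over all genes.

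Among SPX genes, OsSPX2 and OsSPX1 lay on opposite sides of 0. Both encode nuclear proteins that bind PHR2 when phosphate is ample. OsSPX2 (LOC4328654) was at 2142, 375 and 1213 in the empty vector line and at 404, 324 and 447 in the overexpressor. The empty vector arrays were spread widely and the overexpressor arrays lay close together, with empty vector replicate 2 among them. The log2 change was -1.32 ± 0.58 (SE, n = 3 per line; interval -2.68 to 0.03; adjusted p = 0.368). Without both replicate 2 arrays it was -1.88 (adjusted p = 0.0619), the smallest adjusted p of any of the 23 genes under any setting tried. Without empty vector replicate 1 it was -0.78 (adjusted p = 0.616), so that array moved the value by over 1.5 times. In the other direction, it was -2.01 without empty vector replicate 2 (adjusted p = 0.0814).

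OsSPX1 (LOC4341465) was at 1039.6, 509.6 and 824 in the empty vector line and at 1148, 709 and 1471 in the overexpressor. The lines overlapped, replicate 2 was the lowest array of each, and the log2 change of 0.48 ± 0.36 (SE, n = 3 per line; interval -0.38 to 1.33) did not pass (adjusted p = 0.634). For OsSPX1 it was 0.20 without empty vector replicate 2, 0.25 without overexpressor replicate 3 and 0.76 without overexpressor replicate 2. OsSPX4 (LOC4334647), whose protein holds PHR2 in the cytosol, was at 1547, 1086 and 1134 and at 1274, 1403 and 1431. Its log2 change was 0.14 ± 0.22 (SE, n = 3 per line; interval -0.37 to 0.65; adjusted p = 0.835). For OsSPX4 it was 0.30 without empty vector replicate 1, 0.076 without empty vector replicate 3 and 0.045 without empty vector replicate 2. The probe set kept for OsSPX4 was of a type with probes that can match other transcripts. A second probe set for OsSPX4, not of this type, was at 173 to 216 in the empty vector line and 275 to 366 in the overexpressor. Its change was 0.70 ± 0.26, so the 2 probe sets of OsSPX4 differed in whether the lines overlapped. In the fit without cross-hybridizing probe sets, this second probe set did not pass (adjusted p = 0.269).

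OsSPX3 (LOC4348535), known as a gene induced by phosphate starvation, was at 3.76, 11.0 and 1.99 in the empty vector line, all below background. It was at 19.4, 25.4 and 31.1 in the overexpressor, above background on replicate 3 alone. The lines did not overlap, but no fold can be given against this background. OsSPX5 (LOC4333078), its close relative, was below background on all 6 arrays, at 0.44 to 12.6.

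The 3 PHR genes were bright on every array. They encode MYB-type factors that bind the promoters of starvation genes, with PHR2 the main one in rice. OsPHR2 (PHR2 in the gene table) was at 2638, 2204 and 3407 in the empty vector line and at 3426, 3400.02 and 2868 in the overexpressor, and differed by 0.25 ± 0.23 on the log2 scale (SE, n = 3 per line; interval -0.28 to 0.78; adjusted p = 0.698). That difference was 0.064 without both replicate 2 arrays, 0.10 without empty vector replicate 2 and 0.42 without empty vector replicate 3. The second probe set of OsPHR2 had a change of 0.53 ± 0.48, with lines that overlapped too. OsPHR1 (LOC4332726) was at 1746, 2422 and 1885 and at 1709, 1638 and 1617. Its lines did not overlap by a narrow margin, and the log2 change of -0.27 ± 0.20 (SE, n = 3 per line; interval -0.75 to 0.21) did not pass (adjusted p = 0.631). For OsPHR1 it was -0.13 without empty vector replicate 2. OsPHR3 (LOC4328249) was at 2064, 911 and 1959 and at 1508, 529 and 1313, and its change of -0.60 ± 0.48 did not pass (adjusted p = 0.656). The change of OsPHR3 was -0.13 without overexpressor replicate 2, -0.39 without empty vector replicate 1 and -0.97 without empty vector replicate 2.

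Intervals set how much could be seen with 3 arrays per line. The 95% intervals are of the kept probe sets. Of the 12 phosphate genes above background on all arrays, 4 had one wholly within a log2 change of 1 in either direction. They were PHO1-2, OsSPX4, OsPHR1 and OsPHR2. For the rest of the 12 the interval reached beyond that size on 1 side, and the half-widths over the 12 genes ran from 0.48 to 1.37. Other probe sets had larger SEs, with -0.14 ± 0.37 and -0.24 ± 0.88 for PHO1-2, 0.70 ± 0.26 for OsSPX4 and 0.53 ± 0.48 for OsPHR2. For PHO1-2, OsSPX4 and OsPHR2 the bound therefore holds for the kept probe set only.

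**Figure D3:**
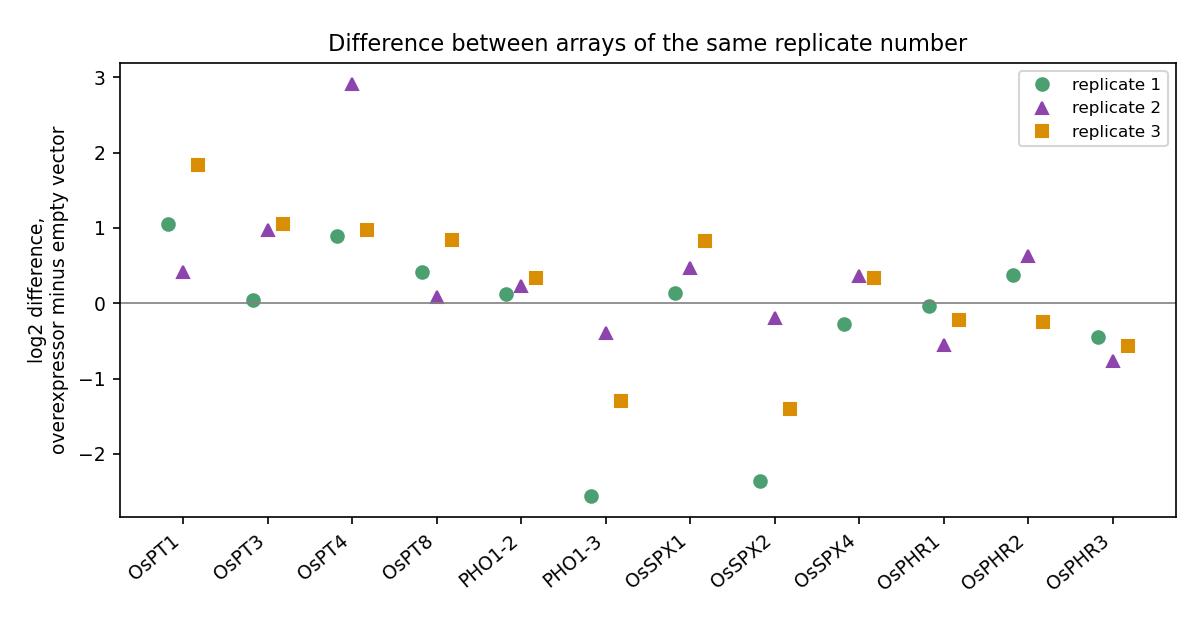
Log2 difference between the overexpressor and empty vector arrays of the same replicate number, for the 12 phosphate genes above background on all 6 arrays. Marker colour and shape give the replicate number; OsPT4 has its largest difference in replicate 2, while PHO1-3 and OsSPX2 have their smallest there.

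Taken by replicate number, 13 of the 19 phosphate genes had 3 differences of 1 sign, 7 up and 6 down, or 68.4 percent, where 42.9 percent of all genes had. The 13 include OsSPX3, OsPT6 and OsPT11, whose differences are between values at or near background. OsPT4 differed by 0.90, 2.92 and 0.97 on the log2 scale in replicates 1, 2 and 3. PHO1-3 differed by -2.56, -0.39 and -1.30, and OsSPX2 by -2.36, -0.20 and -1.41. In these 2 genes replicate 2 had the smallest difference, and in OsPT4 the largest. OsPHR3 was the 1 gene of the 23 that departed by over 1 on the log2 scale in replicate 2 of both lines in 1 direction, by -1.13 in the empty vector line and -1.38 in the overexpressor. That is 4.35 percent of the 23, where 5.91 percent of all genes did so. OsSPX1 departed there by -0.84 and -0.86. The part of the clock difference in these values was not tested.

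The lines did not overlap for 6 of the 19 genes, 3 higher and 3 lower in the overexpressor, where 21.2 percent of all genes did not overlap, 11.8 percent higher and 9.36 percent lower. Of these 6, OsSPX3, OsPT6 and OsPT11 were at or near background, which leaves OsPT4, PHO1-2 and OsPHR1. The probe sets of OsPT4 and PHO1-2 were of a type that can match other transcripts, and the lines overlapped in the other probe sets of PHO1-2. In the second probe set of OsSPX4, a gene outside these 6, the lines did not overlap. The median log2 change was 0.16 over the 19 genes and 0.01 over all genes, with 12 above 0 and 7 below. For the 19 genes it was 0.037 without cross-hybridizing probe sets and 0.064 without both replicate 2 arrays. A change of over 1 in size was found for 4 of the 19, OsPT1, OsPT4, PHO1-3 and OsSPX2, where 10.2 percent of all genes had one.

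The 4 genes that share a name did not pass either. OsHCT3 (LOC4340333), for a hydroxycinnamoyl transferase, was at 126, 273 and 103 in the empty vector line and at 64.6, 44.4 and 55.9 in the overexpressor. Its lines did not overlap, and the log2 change was -1.27 ± 0.42 (SE, n = 3 per line; adjusted p = 0.237). Without both replicate 2 arrays it was -0.77. The probe set kept for OsHCT3 was of a type with probes that can match other transcripts. The second probe set of OsHCT3, not of this type, was at 51.6 to 830.4 and at 36.4 to 69.95. It had a change of -1.32 ± 0.92 and lines that overlapped. OsCPDII (LOC9272017), for a photolyase that repairs ultraviolet damage in DNA, was at 764 to 1102 and at 1037 to 1733, with a change of 0.44 ± 0.27 (adjusted p = 0.534) that was 0.23 without overexpressor replicate 2. OsGRF4 (LOC4330436), for a growth-regulating factor, was above background on 2 arrays of each line, at up to 104. OsPHT3 (LOC4347747), whose symbol is used for more than 1 protein family, was below background on all arrays, at 0.54 to 13.8.

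Other genes of the phosphate response were taken from a list of names for lipid remodelling, inositol phosphate kinases, phosphate translocators of the plastid and regulators. They were chosen by name alone, and genes that share a name were not set apart here. OsVPE1 is also named Glup3, and PAP2 has no further name, so some may belong to other families. Of 21 with a probe set, 0 passed in either direction, where 0.519 percent of all genes passed, and 4 had an unadjusted p under 0.05, where 14.2 percent of all genes had one. Their median log2 change was 0.10, with 13 above 0 and 8 below. OsITPK3, for an inositol phosphate kinase, had the smallest p. It was at 4447, 11865 and 6859 in the empty vector line and at 1267, 1849 and 2459 in the overexpressor, so every overexpressor array was lower. Its log2 change was -1.98 ± 0.40 (SE, n = 3 per line; adjusted p = 0.0883), and it passed with the replicate number as a block (adjusted p = 0.0459). Without both replicate 2 arrays the change of OsITPK3 was -1.64 (adjusted p = 0.105). OsITPK3 has 2 probe sets, and only the kept one is given here. SIZ1, for a SUMO ligase, was at 1648 to 1938 and at 2435 to 2585, with a change of 0.50 ± 0.18 (adjusted p = 0.271). MGD3, for a galactolipid synthase of the kind that replaces phospholipids in starved plants, had a change of 1.30 ± 0.49 (adjusted p = 0.292), and its lines overlapped.

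Nitrogen genes were set beside these. The name list found 34 with a probe set, but 12 of them carry names of endoglucanases (GLU and a number) or are OsGRF4, and 22 remained. Of the 22, 3 rose and 0 fell, where 0.318 percent of all genes rose and 0.201 percent fell: AMT3-2, for an ammonium transporter, GLN1-1, for a cytosolic glutamine synthetase, and DUR3, for a urea transporter. AMT3-2 was at 209 to 271 in the empty vector line and at 1376 to 2470.2 in the overexpressor, DUR3 at 247 to 501 and at 1525 to 1960.02, and GLN1-1 at 2701 to 4173 and at 13048 to 22780. With the replicate number as a block 4 rose, NAR2.2 being the other one (adjusted p = 0.0461 against 0.11 without the block). In that fit 153 of 17905 genes rose, and 1.31 percent of all genes passed in either direction. NAR2.2 was at 6.63, 90.3 and 5.21 in the empty vector line, above background on 1 array only. It was at 162, 471 and 311 in the overexpressor. AMT3-2 and DUR3 each had 1 probe set, of a type with probes that can match other transcripts, and without such probe sets 1 of the 22 passed. GLT2, for a glutamate synthase, was at 3052, 9809 and 6251 in the empty vector line and at 719.5, 15.9 and 299 in the overexpressor, and its log2 change of -4.88 ± 1.08 (SE, n = 3 per line) did not pass (adjusted p = 0.101). For GLT2, overexpressor replicate 2 was below background, and without both replicate 2 arrays the change was -3.19 (adjusted p = 0.0634). With any single array left out, 0 of the 22 passed. The median log2 change was 0.46 over the 22 nitrogen genes, 0.16 over the 19 phosphate genes and 0.01 over all genes. The difference between the lists was not tested. Both lists were read on the same arrays.

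**Figure D4:**
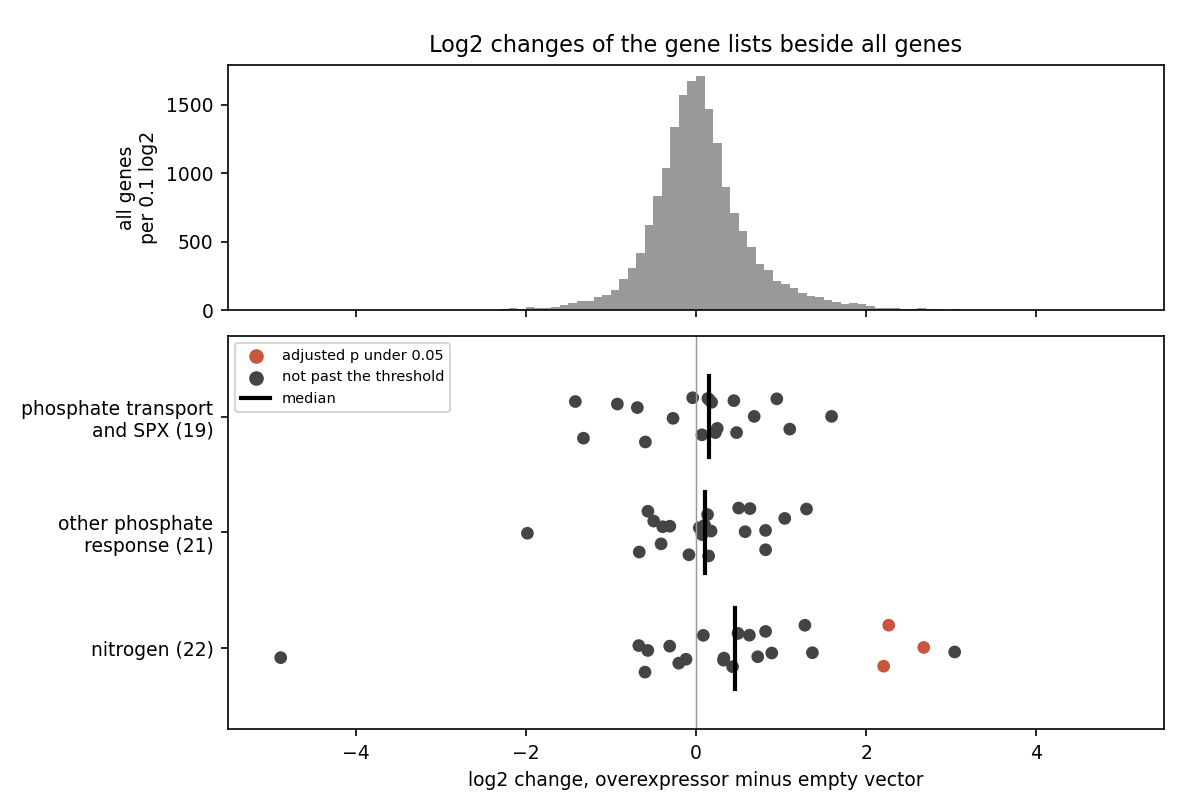
Log2 changes, overexpressor minus empty vector, of the 19 phosphate transport and SPX genes, 21 other phosphate response genes and 22 nitrogen genes as points (vertical position within a list is arbitrary), with a black bar at each median, below a histogram of all 17905 genes. Red points passed at an adjusted p under 0.05, and there are 3, all in the nitrogen list; the axis leaves out the few genes of the histogram with the largest rises.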

How the data were processed

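The deposited values were linear probe set intensity from the authors; trimmed by 2 percent at each end, the array means were 499.95 to 499.96. The sources used here do not name the software that made them. Groups came from the sample titles, since the description of the overexpressor samples names the control. Of 57194 rice probe sets, 22436 were paired with 1 gene by a platform table, with names from the gene table of assembly ASM3414082v1. After adding 16 and taking log2, all rice probe sets were fitted with limma 3.58.1 in R 4.3.3 (lmFit, eBayes with variance trend, 2-sided). For a gene with several probe sets, the one brightest by mean log2 value was kept, and p-values were adjusted by Benjamini-Hochberg over 17905 genes, threshold 0.05. Each SE comes from this fit. The fit was tested on simulated data.

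The members and lists were chosen with earlier results of these data known. All 23 members are named; of other lists, genes that passed and the 3 with the smallest p, with GLT2 and NAR2.2 added after their values were seen. Deviations from line means correlated between arrays of the same number at 0.209, 0.3 and 0.154, and those of different numbers at -0.293 to 0.181. All 3 exceed the limit of 0.1 set for pairing, but so does the 0.181 of empty vector replicate 3 with overexpressor replicate 1. The limit alone thus does not separate arrays of the same number from the rest. The blocked fit is given where it changes a call. The labels do not say that replicates are separate plants, so p-values cover no more than the spread between these samples, which may be technical. No sequences were used here, so promoter motifs were not analysed here.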

Additional observations from a re-analysis of the deposited data

How the results depend on the processing

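The count of 0 among the 23 genes was the same under all 16 alternatives to the main setting and under the wider name rule, which added 7 names with no probe set; the filter on low values left 16 of the 23 to test, and leaving out cross-hybridizing probe sets left 22. Of 360 recomputed changes of single genes, 344 kept their direction and side of the threshold and 16 turned sign, in 7 genes. Many of the 360 could not turn sign. The replicate block, a batch term for replicate 2, a fit without variance trend and the low filter return the main log2 changes in this balanced design. None of these genes passed under any setting, so the side of the threshold restates the count of 0. The 93 genes called in all became 169 after median centring, 234 with the replicate block, 494 under a batch term for replicate 2, 239 without both replicate 2 arrays, and 4 to 35 with single arrays left out. The batch term and the choice of probe set by linear mean were added after seeing the data. Of other phosphate response genes 1 passed with the replicate block and 1 with the batch term. The replicate block changed no call of the 23 genes. The 3 nitrogen genes became 1 without cross-hybridizing probe sets, 5 without both replicate 2 arrays, 5 with the batch term and 0 to 0 with single arrays left out, both over 34 and over 22 genes. The median change over the 23 genes, 0.14, was -0.013 once cross-hybridizing probe sets were dropped and 0.021 to 0.19 with single arrays left out. Without cross-hybridizing probe sets, OsPT3 turned to -0.75, PHO1-2 to -0.24 and OsSPX5 to 0.0039. Without both replicate 2 arrays, OsGRF4 turned to 0.22 and OsPHT3 to 0.089. With single arrays left out, OsPT2 ran from -0.038 to 0.27, OsPT7 from -0.15 to 0.22, OsSPX5 from -0.27 to 0.17, OsGRF4 from -0.71 to 0.025 and OsPHT3 from -0.26 to 0.16. The cause of these turns was not tested. Signal over background limits OsPT2, OsPT6, OsPT7, OsPT11, OsPT12, OsSPX3, OsSPX5, OsGRF4 and OsPHT3.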
